A study of Mus musculus with 9 samples.

Results

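The 10 chemokine ligand genes described here were Ccl2, Ccl5, Ccl7, Ccl8, Ccl9, Cxcl1, Cxcl5, Cxcl10, Cxcl12 and Cx3cl1, chosen by symbol from the 24421 genes of a count table of mouse tumor RNA. They were compared between 5 tumors of mice given R-propranolol and 4 tumors of mice given vehicle. Every tumor was an allograft of bEnd.3, an endothelial cell line of the mouse that carries polyoma middle T antigen, and was raised as a model of hemangioma on the flank of male Nu/Nu nude mice. R-propranolol is the isomer of propranolol that lacks beta blockade activity, and its injections began on the second day after the cells were implanted, while the vehicle was ethanol in buffered saline. Nude mice lack a thymus and have few T cells, while their monocytes, macrophages and neutrophils remain. The titles give vehicle replicates 1 and 2 a number in common whose meaning is not stated. Both were counted as separate tumors. The paper describes cells given per mouse in the right flank, with 5 mice per group. Nothing in the labels ties each sample to its own animal, so p-values measure only the spread between these samples, which may be technical. For none of the 10 ligands did the difference between R-propranolol and vehicle exceed the spread between tumors in the test used, and the highest values of several of them lay in R-propranolol replicates 2 and 5.

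Chemokines are small secreted proteins that draw leukocytes along a gradient and bind to G protein-coupled receptors on them. CC ligands such as Ccl2 and Ccl7 mainly recruit monocytes. CXC ligands with an ELR motif such as Cxcl1 and Cxcl5 recruit neutrophils through Cxcr2, and Cxcl10 is induced by interferon and attracts cells that carry Cxcr3. Cxcl12 retains and guides cells with Cxcr4 and is made by stromal and endothelial cells, and Cx3cl1 is tethered to the surface of endothelial cells until proteases release it. These were bulk tumors, so fewer cells of a type and less RNA per cell cannot be told apart.

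The libraries held 21084749 to 27852630 counts over genes in R-propranolol tumors and 20599904 to 24949010 in vehicle tumors. R-propranolol replicate 5 stood apart over all 13901 genes tested, with a correlation of log2 CPM with the 7 tumors other than replicate 2 of 0.678 to 0.777, against 0.951 to 0.988 among those 7 tumors. R-propranolol replicate 2 had 0.897 to 0.955 with the same 7 tumors. CPM are counts per 1e+06 counts of the TMM-scaled library of the genes tested. The TMM factor was 0.753 for R-propranolol replicate 5 and 0.966 to 1.10 for the other tumors, so CPM of replicate 5 are higher than its raw shares. RNA of bEnd.3 cells and RNA of host vessels cannot be told apart by endothelial markers, so these do not test the origin of the tumors. Each of the 10 endothelial markers had at least 10 counts in all 9 libraries. Their summed level was 762 to 1263 CPM in R-propranolol tumors and 963 to 1187 CPM in vehicle tumors. Skeletal muscle markers summed to 182900 CPM in R-propranolol replicate 5, where they were 13.0% of its raw counts over all genes. They summed to 5.50 to 12.5 CPM in the other 4 R-propranolol tumors, against 5.03 to 418 CPM in vehicle tumors. Adipocyte markers summed to 4492 CPM in R-propranolol replicate 5, against 47.4 to 357 CPM in vehicle tumors. Because R-propranolol replicates 2 and 5 stand apart, the fold changes of the 10 ligands below, and the counts over other lists, are also given without them, a setting chosen after the values were seen.

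By the quasi-likelihood test of edgeR, 0 of the 10 ligands passed an adjusted p of 0.05, beside a background of 0% of the 13901 genes tested. At an unadjusted p under 0.05 the count of ligands was also 0, beside 2.3% of the genes tested, and 0 ligands had groups that did not overlap, beside 1.26% of the genes tested. DESeq2 gave a p for 9 of the 10 ligands, all but Cxcl5. It put 1 of them, Ccl9, under an unadjusted p of 0.05 and 0 under an adjusted p of 0.05. Of the 13901 genes given to DESeq2, 656 were under the unadjusted and 2 under the adjusted p of 0.05, though some, like Cxcl5, got no p. All 10 ligands passed the filter on low counts. Of the 10 fold changes, R-propranolol over vehicle, 5 were above 0 and 5 were below, with a median of -0.03 on the log2 scale, beside a median of 0.03 over all genes tested. Scaling by library size alone moved the median of all genes to -0.10 and gave 2 ligands above 0 and 8 below, with a median of -0.18.

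**Figure D1:**
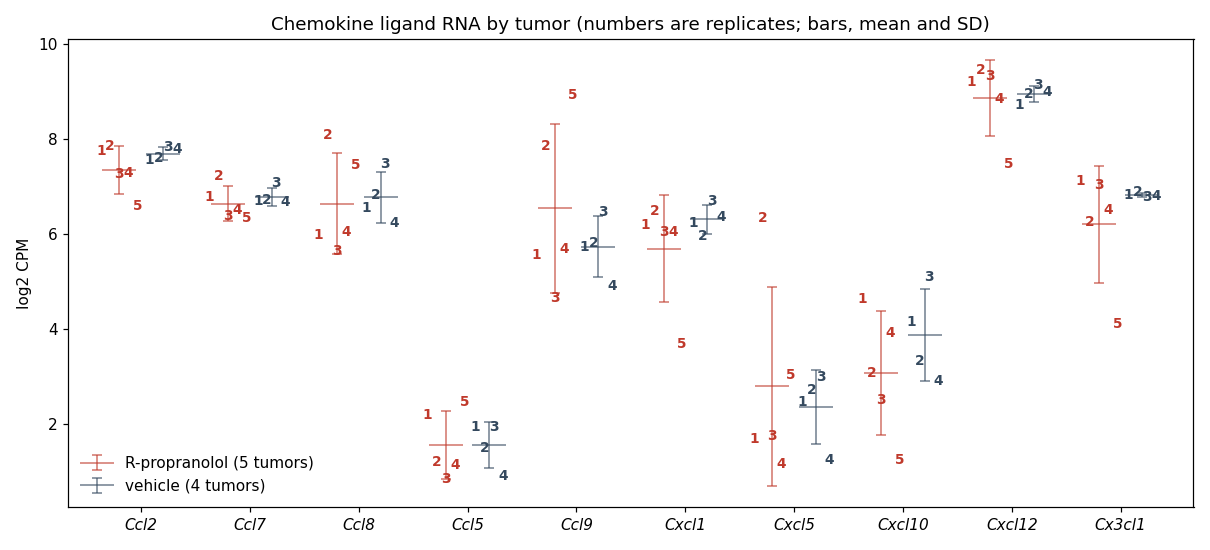
Level of each of the 10 ligands in each tumor, in log2 CPM, with the 5 R-propranolol tumors at the left of each pair and the 4 vehicle tumors at the right. Each digit is the replicate number at that tumor's level, and bars give the mean and SD. Replicate 5 of R-propranolol lies far below the others for Cxcl1 and Cx3cl1, and replicate 2 above them for Cxcl5.

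Ccl2, Ccl7 and Ccl8 lie in a cluster on chromosome 11 (GRCm38, GENCODE M21), Ccl2 at 82035571 to 82037453, Ccl7 at 82045712 to 82047525 and Ccl8 at 82115185 to 82116799, all on the plus strand. Ccl2 is the main ligand of Ccr2, the receptor that brings monocytes out of the blood. Its level in the R-propranolol tumors, from replicate 1 to 5, was 214, 230.3, 153, 156 and 96.2 CPM, against 186, 194, 226 and 219 CPM in the 4 vehicle tumors. Of the R-propranolol tumors, 3 lay below the lowest vehicle tumor and 1 lay above the highest, so the groups overlapped. Ccl2 averaged 169.8 ± 53.6 CPM in R-propranolol tumors and 207 ± 19.3 CPM in vehicle tumors (SD, n = 5 and 4). Its log2 fold change was -0.28 (SE 0.23, 95% interval -0.81 to 0.25, edgeR adjusted p = 0.876, exact permutation p = 0.214, two-sided), -0.14 without R-propranolol replicate 5 and -0.24 without replicates 2 and 5.

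Ccl7, a related monocyte attractant that also binds Ccr2, had 109, 148, 82.8, 90.1 and 79.9 CPM in R-propranolol tumors, against 103, 104, 133 and 101 CPM in vehicle tumors. Again 3 R-propranolol tumors lay below the lowest vehicle tumor and 1 above the highest. The log2 fold change of Ccl7 was -0.12 (SE 0.20, 95% interval -0.56 to 0.33, edgeR adjusted p = 0.881), and -0.24 without replicates 2 and 5. The 95% intervals of Ccl2 and Ccl7 were the narrowest of the 10.

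Ccl8, a monocyte and macrophage product that in mice acts through Ccr8, behaved differently among the R-propranolol tumors. It had 62.6, 272, 49.9, 65.1 and 173 CPM in R-propranolol tumors, against 93.6, 113, 177 and 74.2 CPM in vehicle tumors. Replicates 1, 3 and 4 of R-propranolol were below all 4 vehicle tumors, and replicate 2 was above them all. The means were 125 ± 96.2 CPM in R-propranolol tumors and 114 ± 44.5 CPM in vehicle tumors (SD, n = 5 and 4), while the medians were 65.1 and 103 CPM. For Ccl8 the log2 fold change was 0.12 (SE 0.54, 95% interval -1.10 to 1.34, edgeR adjusted p = 0.944). Without R-propranolol replicate 2 it was -0.38, and without replicates 2 and 5 it was -0.95. The fit without both gave an unadjusted edgeR p of 0.008 and an adjusted p of 0.944. In that fit 639 of 13812 genes had an unadjusted p under 0.05. Replicates 2 and 5 held the highest R-propranolol values of Ccl8, so that p cannot be read as a test of treatment.

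Ccl5 and Ccl9 lie further along chromosome 11 on the minus strand, Ccl5 at 83525778 to 83530518 and Ccl9 at 83572919 to 83578636. Ccl5 attracts monocytes and T cells and is made in quantity by activated T cells and NK cells. Its level was 4.52, 2.28, 1.76, 2.17 and 5.45 CPM in R-propranolol tumors, against 3.79, 2.81, 3.77 and 1.85 CPM in vehicle tumors. Replicates 1 and 5 of R-propranolol were above all vehicle tumors and replicate 3 was below them. These levels rested on 39 to 128 counts per tumor. For Ccl5 the log2 fold change was 0.08 (SE 0.41, 95% interval -0.85 to 1.004, edgeR adjusted p = 0.954), and -0.12 without replicates 2 and 5. Lymphocyte markers were low in the same libraries, with summed levels of 2.41 to 12.6 CPM in R-propranolol tumors and 3.94 to 13.5 CPM in vehicle tumors, led by Gzma, a granule protease of NK and T cells.

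Ccl9, a Ccr1 ligand of mice made by macrophages and other myeloid cells, had the widest ratio between tumors among the CC ligands of the 10. It had 47.1, 229.8, 25.1, 51.0 and 486 CPM in R-propranolol tumors, against 52.8, 56.1, 88.4 and 30.0 CPM in vehicle tumors. Replicates 2 and 5 of R-propranolol were 4.04 and 8.56 times the mean of the vehicle tumors, and of the 3 other R-propranolol tumors 1 lay below the vehicle range and the other two within it. The means were 168 ± 196 CPM in R-propranolol tumors and 56.8 ± 24.0 CPM in vehicle tumors (SD, n = 5 and 4). The median was 51.0 CPM in R-propranolol tumors and 54.5 CPM in vehicle tumors. Ccl9 had a log2 fold change of 1.56 (SE 0.87, 95% interval -0.41 to 3.53, edgeR adjusted p = 0.876, exact permutation p = 0.452, two-sided). It was 0.62 without R-propranolol replicate 5, 1.43 without replicate 2 and -0.47 without both.

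Ccl6, the neighbor of Ccl9 and also a Ccr1 ligand, was high in the same 2 tumors. It had 66.1, 636, 67.4, 79.5 and 952 CPM in R-propranolol tumors, against 91.7, 114, 177 and 62.7 CPM in vehicle tumors. Macrophage and monocyte markers summed to 1282, 2998, 671, 1464 and 3664 CPM in R-propranolol tumors, against 1986, 1494, 1775 and 726 CPM in vehicle tumors. Of these 10 markers, 3 were highest in R-propranolol replicate 2 and 7 in replicate 5, and Mrc1, the mannose receptor of resident macrophages, was the most abundant. Their part in the level of Ccl9 was not tested.

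The ELR CXC ligands lie in a cluster on chromosome 5, Cxcl5 at 90759360 to 90761624 and Cxcl1 at 90891241 to 90893115, both on the plus strand. Cxcl1 is induced within hours by inflammatory signals in endothelial cells and fibroblasts. It had 72.9, 88.8, 65.7, 66.0 and 12.8 CPM in R-propranolol tumors, against 74.2, 61.9, 103 and 81.9 CPM in vehicle tumors. Of the R-propranolol tumors 4 lay within the vehicle range, and replicate 5 was 6.25-fold lower than the vehicle mean. Cxcl1 had a log2 fold change of -0.39 (SE 0.45, 95% interval -1.40 to 0.63, edgeR adjusted p = 0.878), -0.13 without replicate 5 and -0.23 without replicates 2 and 5.

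Cxcl5 is made by epithelial cells, platelets and stromal cells and attracts neutrophils. It had 3.18, 80.9, 3.34, 2.21 and 8.11 CPM in R-propranolol tumors, against 5.51, 6.55, 7.90 and 2.33 CPM in vehicle tumors. Replicate 2 of R-propranolol was 14.5 times the vehicle mean, and the medians were 3.34 CPM in R-propranolol tumors and 6.03 CPM in vehicle tumors. The log2 fold change of Cxcl5 was 1.81 (SE 1.15, 95% interval -0.80 to 4.41, edgeR adjusted p = 0.876, exact permutation p = 0.841, two-sided). It was -0.40 without R-propranolol replicate 2 and -0.94 without replicates 2 and 5. The fit without both gave an unadjusted edgeR p of 0.041 and an adjusted p of 0.944. In that fit 639 of 13812 genes had an unadjusted p under 0.05. Replicates 2 and 5 held the highest R-propranolol values of Cxcl5, so that p cannot be read as a test of treatment.

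Cxcl2, Cxcl3 and Ppbp, other ELR ligands chosen here after their values were seen, were high in replicate 2 as well but not in replicate 5, while Cxcl15 was at most 0.258 CPM in any tumor. Cxcl2, a macrophage and neutrophil product, had 11.3, 98.5, 23.0, 14.6 and 2.86 CPM in R-propranolol tumors, against 10.8, 12.2, 20.2 and 11.4 CPM in vehicle tumors. Ppbp, the neutrophil attractant of platelet granules, had 6.92, 80.1, 3.56, 8.16 and 4.79 CPM in R-propranolol tumors, against 10.7, 8.90, 19.4 and 7.88 CPM in vehicle tumors. Neutrophil markers summed to 133, 352, 148, 145 and 42.7 CPM in R-propranolol tumors, against 148, 207, 190 and 107 CPM in vehicle tumors, with Csf3r the most abundant. Fibroblast markers, led by Col3a1, summed to 6562, 31458, 5997, 5234 and 16340 CPM in R-propranolol tumors, against 5930, 7501, 8535 and 5876 CPM in vehicle tumors. Both sums were highest in replicate 2, and the neutrophil sum was lowest in replicate 5. Of the 10 fibroblast markers 4 were highest in replicate 2 and 6 in replicate 5, and of the 9 neutrophil markers measured 5 were highest in replicate 2 and 0 in replicate 5. Their part in the levels of Cxcl1 and Cxcl5 was not tested.

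**Figure D2:**
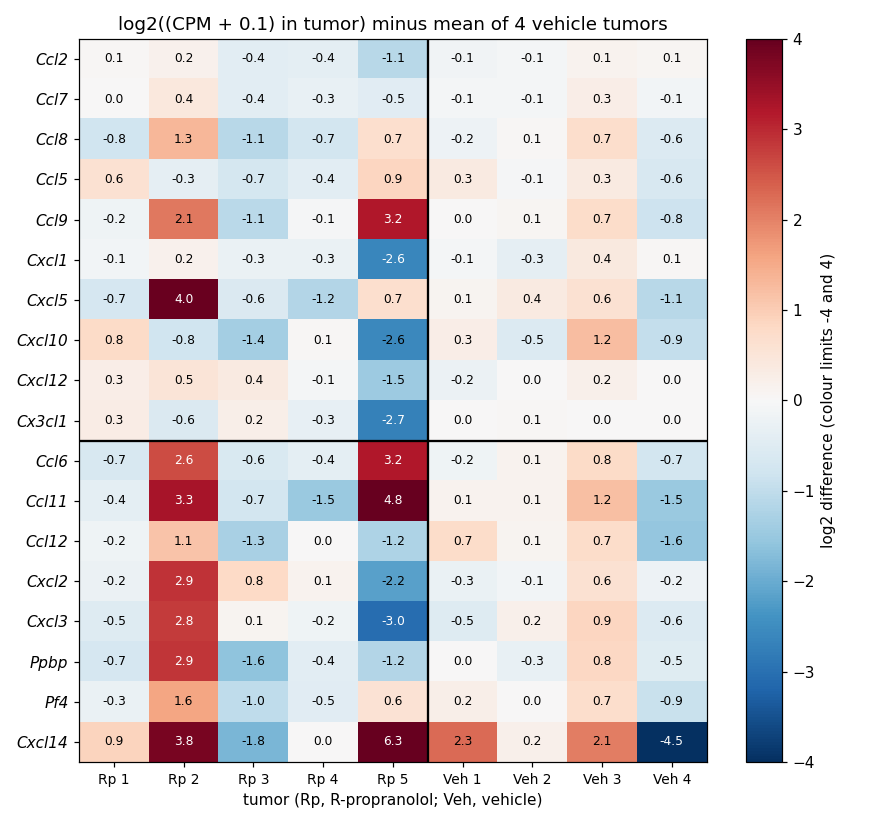
Each cell gives log2 of CPM plus 0.1 in 1 tumor minus the mean of the 4 vehicle tumors, with the 5 R-propranolol tumors at the left and the 10 ligands above the black line. Below it are 8 other ligand genes. The darkest red cells in R-propranolol replicate 2 mark Ccl9, Cxcl5, Ccl6, Ccl11, Cxcl14 and the ELR ligands Cxcl2, Cxcl3 and Ppbp, and in replicate 5 dark red marks Ccl9, Ccl6, Ccl11 and Cxcl14 while dark blue marks Cxcl1, Cxcl10, Cx3cl1, Cxcl2 and Cxcl3.

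Cxcl10 is the interferon-induced ligand of Cxcr3 and limits vessel growth. It lies at 92346638 to 92348889 on the minus strand of chromosome 5, and 133 of its exon bases are shared with Art3 on the other strand, so its reads and those of Art3 cannot be told apart there if strand was not used in counting. It had 24.6, 8.33, 5.60, 15.002 and 2.33 CPM in R-propranolol tumors, against 17.6, 9.98, 34.0 and 7.45 CPM in vehicle tumors. Replicates 3 and 5 of R-propranolol were below the vehicle range, and the vehicle tumors themselves spread by 4.57 times. Cxcl10 had a log2 fold change of -0.62 (SE 0.68, 95% interval -2.16 to 0.91, edgeR adjusted p = 0.878), -1.14 without R-propranolol replicate 1, -0.06 without vehicle replicate 3 and -0.20 without R-propranolol replicates 2 and 5.

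Cxcl12, the ligand of Cxcr4 and of the scavenger receptor Ackr3, had the highest mean CPM of the 10. It lies at 117168535 to 117181367 on the plus strand of chromosome 6. It had 585, 693, 634, 459.9 and 178 CPM in R-propranolol tumors, against 416, 493, 557 and 503 CPM in vehicle tumors. Replicates 1, 2 and 3 of R-propranolol were above all vehicle tumors, and replicate 5 was below them, 2.77-fold lower than the vehicle mean. The log2 fold change of Cxcl12 was 0.05 (SE 0.34, 95% interval -0.73 to 0.83, edgeR adjusted p = 0.968), and 0.19 without replicates 2 and 5. Without replicate 5 it was 0.27, with an unadjusted edgeR p of 0.083 and an adjusted p of 0.9995. In that fit 519 of 13743 genes had an unadjusted p under 0.05. Replicate 5 held the lowest value of Cxcl12, so that p cannot be read as a test of treatment.

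Cx3cl1, the membrane-tethered ligand of Cx3cr1, had the tightest vehicle values of the 10. It lies at 94772009 to 94782427 on the plus strand of chromosome 8. It had 138, 75.6, 131, 90.3 and 17.2 CPM in R-propranolol tumors, against 113, 117, 109 and 111 CPM in vehicle tumors. Of the R-propranolol tumors 2 were above the vehicle range and 3 were below it, and the vehicle values spread by 1.07 times while the R-propranolol values spread by 8.06 times. Cx3cl1 averaged 90.4 ± 48.7 CPM in R-propranolol tumors and 112 ± 3.44 CPM in vehicle tumors (SD, n = 5 and 4). The log2 fold change was -0.31 (SE 0.47, 95% interval -1.39 to 0.76, edgeR adjusted p = 0.878), -0.05 without replicate 5 and 0.09 without replicates 2 and 5.

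The endothelial markers did not move together in replicate 5. Flt1, a VEGF receptor and the most abundant of them, was lowest there. It had 522, 324, 615, 481 and 111 CPM in R-propranolol tumors, against 443, 588, 518 and 633 CPM in vehicle tumors. Kdr, also a VEGF receptor, and Tek, the angiopoietin receptor, were highest in replicate 5, with 84.7 and 49.3 CPM, against 12.02 to 24.0 CPM for Kdr and 3.32 to 8.37 CPM for Tek in vehicle tumors. Of the 10 endothelial markers, 6 were highest in R-propranolol replicate 2 and 2 in replicate 5. Replicate 5 of R-propranolol was the lowest of the 9 tumors for 6 of the 10 ligands (Ccl2, Ccl7, Cxcl1, Cxcl10, Cxcl12 and Cx3cl1) and the highest for Ccl5 and Ccl9. Over all genes tested it was the lowest for 42.1% and the highest for 36.5%. Replicate 2 was the highest for 5 ligands (Ccl2, Ccl7, Ccl8, Cxcl5 and Cxcl12), beside 14.6% of all genes. The part of muscle, fat and fibroblast RNA in these values was not tested.

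**Figure D3:**
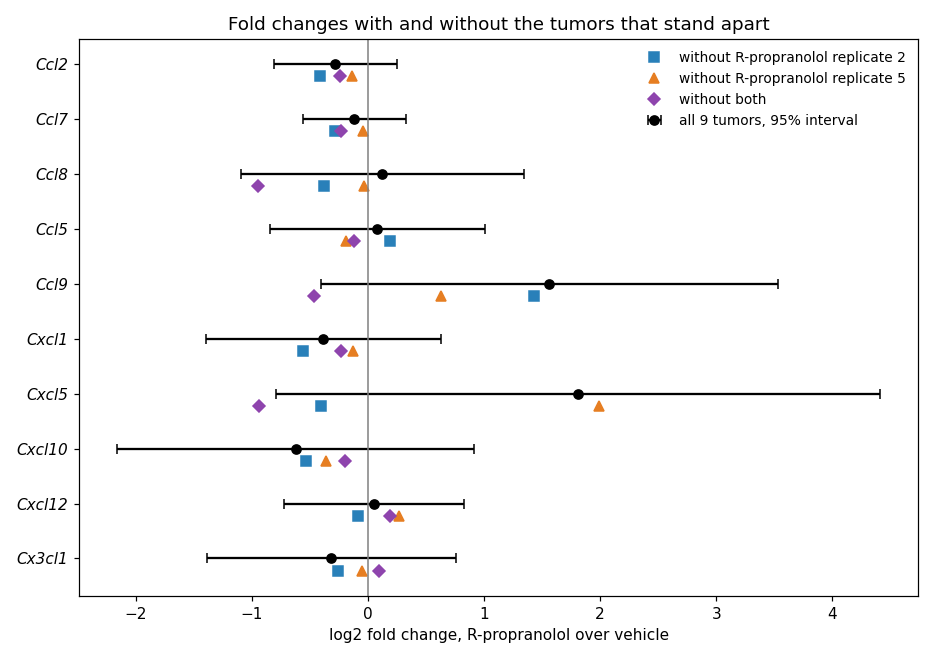
Log2 fold change of each ligand, R-propranolol over vehicle. Black points and bars are the fit over all 9 tumors with its 95% interval, and coloured marks are fits without R-propranolol replicate 2, without replicate 5 and without both. All 10 intervals include 0, and the marks for Ccl8, Ccl9 and Cxcl5 lie below 0 when both tumors are left out.

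Promoter sequence is shown for Cxcl1, Cxcl10 and Ccl9, the 3 ligands that held a searched motif among the 6 with a promoter at hand. Cxcl1 and Cxcl10 were lowest and Ccl9 highest in R-propranolol replicate 5. Cxcl12 and Cx3cl1 were lowest there too but held none of the motifs. The RefSeq promoter table used here (GRCm38.p6) matched 6 of the 10 ligands, Cxcl1, Cxcl10, Cxcl12, Cx3cl1, Ccl8 and Ccl9, each as 250 bases before and 50 after the start. Both strands were searched for the NF-kB motif GGGNNNTTCC, the interferon-stimulated response element GAAANNGAAA and the AP-1 motif TGANTCA, and no matches of different motifs overlapped in these 3 promoters. Of 32851 promoters of that length, 5.56% held the NF-kB motif, 3.44% the interferon-stimulated response element and 7.81% the AP-1 motif. The sequences run from 110 bases (Cxcl1 and Ccl9) or 240 bases (Cxcl10) before the start to the base before it, with the matches in capitals. The places are chr5:90891135-90891244 on the plus strand for Cxcl1, chr5:92348890-92349129 on the minus strand for Cxcl10 and chr11:83578637-83578746 on the minus strand for Ccl9.
Cxcl1: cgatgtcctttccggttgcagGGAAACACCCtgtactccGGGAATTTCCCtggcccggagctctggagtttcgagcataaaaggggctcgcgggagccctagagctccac
Cxcl10: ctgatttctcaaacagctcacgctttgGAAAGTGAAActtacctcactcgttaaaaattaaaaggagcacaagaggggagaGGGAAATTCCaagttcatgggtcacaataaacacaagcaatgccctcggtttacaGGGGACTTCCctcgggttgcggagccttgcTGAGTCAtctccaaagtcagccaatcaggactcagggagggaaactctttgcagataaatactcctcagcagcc
Ccl9: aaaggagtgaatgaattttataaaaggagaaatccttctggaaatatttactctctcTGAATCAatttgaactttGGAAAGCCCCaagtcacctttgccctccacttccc

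Cxcl1 held NF-kB matches 89 to 80 bases before the start on the minus strand and 71 to 61 bases before it, where matches on both strands overlap. Cxcl10 held NF-kB matches at 159 to 150 and 104 to 95 bases before the start, the interferon-stimulated response element at 213 to 204 and the AP-1 motif at 74 to 68. Ccl9 held an NF-kB match at 35 to 26 bases before the start on the minus strand and the AP-1 motif at 53 to 47. None of the 3 motifs was found in the windows of Cxcl12, Cx3cl1 and Ccl8. A match describes letters in the sequence only.

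Levels of different genes are compared per kb of exon, where the length of a gene joins the exons of all its annotated transcripts. That length was 8176 bases for Cxcl12 and 511 bases for Ccl8. The order and shares below depend on this choice, and lengths of single transcripts were not used. In vehicle tumors Ccl8 led with 224 ± 87.0 CPM per kb, then Ccl2 with 182 ± 17.0, Ccl7 with 138 ± 19.1 and Cxcl12 with 60.2 ± 7.10 CPM per kb (SD, n = 4). Cxcl1 followed with 42.8 ± 9.12, Cx3cl1 with 28.6 ± 0.87 and Ccl9 with 18.7 ± 7.90 CPM per kb. Cxcl10 with 7.66 ± 5.32, Ccl5 with 3.18 ± 0.96 and Cxcl5 with 2.99 ± 1.27 CPM per kb were the lowest. Among neighbors in this order the vehicle ranges were apart only for Ccl7 over Cxcl12 and for Cxcl1 over Cx3cl1. Ccl8, Ccl2 and Ccl7 also led in the means of the R-propranolol tumors, with 244, 149 and 127 CPM per kb. That order did not hold in each tumor. Ccl8 exceeded Ccl2 in 3 vehicle tumors but in only 2 R-propranolol tumors, replicates 2 and 5, with 532 and 339 CPM per kb of Ccl8. In replicate 5, Ccl9 had 160 CPM per kb, above Ccl2 with 84.5 and Ccl7 with 99.8.

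**Figure D4:**
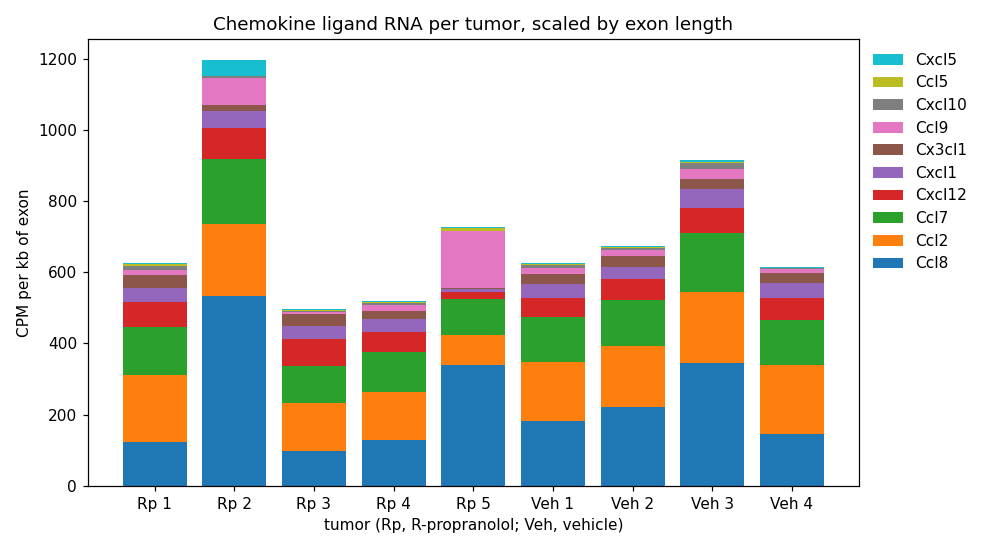
Stacked bars of CPM per kb of exon for the 10 ligands in each tumor, with the R-propranolol tumors at the left. Ccl8, Ccl2 and Ccl7 form the base of every bar, Ccl9 makes up 22% of the bar of R-propranolol replicate 5, and Ccl8 44.5% of the bar of replicate 2.

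In R-propranolol replicate 5, Ccl9 made up 22% of the ligands' summed CPM per kb, and in replicate 2 it made up 6.31%. In the 7 other tumors the share of Ccl9 was 1.60% to 3.24%. Cxcl12 made up 2.99% in replicate 5, below its 7.09% to 15.6% in the other R-propranolol tumors and 7.46% to 10.01% in vehicle tumors. The 10 ligands summed to 998 to 1828 CPM in R-propranolol tumors and 1066 to 1440 CPM in vehicle tumors. The 30 other ligand genes of the table summed to 194 to 245 CPM in 3 R-propranolol tumors, to 1387 CPM in replicate 2 and 1755 CPM in replicate 5, against 171 to 511 CPM in vehicle tumors. The 10 ligands were 56.9% and 37.6% of the ligand CPM in replicates 2 and 5, and 73.8% to 86.9% in the 7 other tumors.

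Of the 30 other ligands, 18 were tested, 14 with a fold change above 0 and 4 below, and 0 passed an adjusted p of 0.05 or an unadjusted p of 0.05. Their median log2 fold change was 0.74, and 0.45 without R-propranolol replicate 5. Without replicates 2 and 5 it was -0.31, with 5 genes above 0 and 13 below. Ccl6, Pf4 and Cxcl14 were the most abundant and Ccl11, Ccl6 and Ccl24 had the smallest p. Ccl11, or eotaxin, the eosinophil attractant, had 1.52, 20.8, 1.19, 0.66 and 58.3 CPM in R-propranolol tumors, against 2.24, 2.24, 4.76 and 0.66 CPM in vehicle tumors. Its log2 fold change was 2.73 (SE 1.39, edgeR adjusted p = 0.876), and -1.14 without the 2 tumors. Ccl24, a further eosinophil attractant, had 26.0 CPM in replicate 5 and 0.25 to 3.32 CPM in the other R-propranolol tumors, against 0.52 to 3.14 CPM in vehicle tumors. Cxcl14 reached 518 CPM in replicate 5 and 92.1 CPM in replicate 2, with 1.76 to 12.3 CPM in the 3 other R-propranolol tumors, against 0.19 to 32.1 CPM in vehicle tumors. Pf4, the platelet factor, had 233 CPM in replicate 2, against 42.0 to 127 CPM in vehicle tumors.

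Of the 19 receptor genes, 13 were tested, 8 above 0 and 5 below, with a median log2 fold change of 0.24, and 0 passed an adjusted p of 0.05. Without R-propranolol replicates 2 and 5, 3 were above 0 and 10 below, with a median of -0.50. Ccr10, a receptor for skin-homing ligands, was the 1 receptor of 13 at an unadjusted p under 0.05, beside 2.3% of all genes tested, with a log2 fold change of 1.07 (SE 0.38, edgeR adjusted p = 0.876), and 0.89 without replicates 2 and 5. The count was 0 without vehicle replicate 1, with vehicle replicates 1 and 2 summed and with the replicate number as a block. It had 1.48, 0.76, 1.01, 1.07 and 2.46 CPM in R-propranolol tumors, against 0.52, 0.62, 0.75 and 0.66 CPM in vehicle tumors. The groups did not overlap, as for 1.26% of all genes tested, and these levels rested on at most 42 counts per tumor. Ccr2, the receptor of Ccl2 and Ccl7, had 32.0, 67.9, 7.80, 28.9 and 163 CPM in R-propranolol tumors, against 46.2, 30.9, 53.3 and 13.9 CPM in vehicle tumors. Ccr2 was highest in R-propranolol replicate 5, where Ccl2 and Ccl7 were lowest. Ccr1, the receptor of Ccl9 and Ccl6, had 15.6 to 71.5 CPM in R-propranolol tumors and 21.5 to 54.5 CPM in vehicle tumors. Ccr7, which guides cells into lymphatic vessels, had a log2 fold change of -0.65 (SE 0.37, edgeR adjusted p = 0.876), and -0.42 without replicates 2 and 5.

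Of 5 atypical receptors, which bind chemokines without the usual signal, 3 were tested and all 3 had fold changes above 0, while without replicates 2 and 5 the count was 1 above 0 and 2 below. Ackr3, which takes up Cxcl12, had 48.0, 188, 57.7, 43.5 and 129 CPM in R-propranolol tumors, against 38.9, 56.7, 67.6 and 49.98 CPM in vehicle tumors. Its log2 fold change was 0.81 (SE 0.46, edgeR adjusted p = 0.876), and -0.10 without replicates 2 and 5. Ccrl2 had 5.33 to 17.9 CPM in R-propranolol tumors and 2.75 to 7.74 CPM in vehicle tumors, and Ackr1, the Duffy receptor of venules, had 28.3 CPM in replicate 5 and 0.04 to 2.96 CPM in the other R-propranolol tumors, against 0 to 2.38 CPM in vehicle tumors.

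Of 11 genes that cleave or present chemokines, 11 were tested, 3 above 0 and 8 below, with a median log2 fold change of -0.13. In edgeR 0 passed an unadjusted p of 0.05, beside 2.3% of all genes tested. In DESeq2 1 passed, beside 656 of the 13901 genes given to it, not all of which got a p. Without R-propranolol replicate 5, 7 were above 0 and 4 below, with a median of 0.045, and without replicates 2 and 5, 2 were above 0 and 9 below, with a median of -0.070. Adam10 and Adam17, the proteases that release Cx3cl1 from the membrane, had log2 fold changes of -0.25 (SE 0.25) and 0.31 (SE 0.24), each with an edgeR adjusted p of at least 0.876, and -0.039 and -0.070 without replicates 2 and 5. Adam10 had 304, 274, 317, 279.7 and 123 CPM in R-propranolol tumors, against 263, 295, 333 and 345 CPM in vehicle tumors. Adam17 had 62.5, 103, 53.2, 62.1 and 106 CPM in R-propranolol tumors, against 70.3, 62.2, 68.5 and 47.8 CPM in vehicle tumors. In replicate 5, Adam10 was lowest, as Cx3cl1 was, and Adam17 was highest. Mmp2, Mmp14 and Sdc4 were the most abundant of the list, and Dpp4, the protease that trims many chemokines, had 68.6 CPM in replicate 5 and 0.93 to 17.7 CPM in the other R-propranolol tumors, against 0.47 to 5.24 CPM in vehicle tumors.

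The genes whose log2 CPM followed each ligand most closely over the 9 tumors were found among 13271 genes with a mean of at least 1 CPM, as a description only, since the tumors share their groups and the same scaling. Cx3cl1 was closest to Slc25a37, Adamts7 and Ccdc122 (Pearson r of 0.997, 0.992 and 0.992), which were 0.982, 0.945 and 0.905 over the 8 tumors without replicate 5. Cxcl12 was close to Wsb1 (0.992, and 0.957 over the 8 tumors). Cxcl1 was closest to Ifi203, 1810032O08Rik and Snn (0.991, 0.990 and 0.990, but 0.880, 0.849 and 0.865 over the 8 tumors). Ccl9 was closest to Arrdc4, Pygl and Papss2 (0.996, 0.994 and 0.991, and 0.992, 0.988 and 0.988 over the 8 tumors). Cxcl5 was closest to Col1a1, Adra2a and Sema4f (0.977, 0.972 and 0.970, and 0.978, 0.977 and 0.970 over the 8 tumors). Ccl8 was closest to Gnpnat1, Emilin2 and Hgf (0.959, 0.953 and 0.949, and 0.962, 0.947 and 0.946 over the 8 tumors). Ccl2 was closest to Pcf11, Tmem173 and 1500011B03Rik (0.970, 0.954 and 0.953, but 0.894, 0.867 and 0.830 over the 8 tumors). Ccl7 was closest to Ostc, Abracl and BC018473 (0.967, 0.964 and 0.960, and 0.959, 0.956 and 0.948 over the 8 tumors). Ccl5 was closest to Klhdc7a, Mir568 and Tor3a (0.949, 0.924 and 0.923, and 0.937, 0.889 and 0.884 over the 8 tumors). Cxcl10 was closest to Zfp658, Lbr and Mdm1 (0.948, 0.945 and 0.945, and 0.900, 0.968 and 0.893 over the 8 tumors).

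Among the ligands themselves, Cxcl1 and Cxcl12 had an r of 0.919 over 9 tumors and 0.313 over 8, and Cx3cl1 and Cxcl1 had 0.900 over 9 and -0.34 over 8. Both relations rested on R-propranolol replicate 5. Ccl8 and Cxcl5 had 0.870 over 9 tumors and 0.893 over 8, and Ccl8 and Ccl9 had 0.834 over 9 and 0.925 over 8.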

How the data were processed

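The 9 samples were RNA libraries of bEnd.3 tumors, 5 from mice given R-propranolol and 4 from mice given vehicle. The authors made the libraries with the NEBNext Ultra kit, read pairs of 150 bases and, per the submitters' processing notes, used STAR, HTSeq and mm10. The sources used here give no versions, annotation or strand setting. The deposited values are raw counts of 24421 gene symbols. Rows that name no gene were left out (no feature 13.4% to 15.4%, ambiguous 1.81% to 1.98%, not unique 3.46% to 7.86% of reads). Reads with several places were not counted, and sharing of reads between similar chemokine genes was not tested.

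The groups were compared by the quasi-likelihood test of edgeR 4.0.16 (R 4.3.3), with Benjamini-Hochberg adjustment over the 13901 genes that passed filterByExpr (minimum count 10, minimum total 15). TMM scaled the library sizes over these genes. Log2 CPM used a prior count of 0.25. Exact permutation tests over 126 splits of the tumors, two-sided, can give p no smaller than 0.00794. Intervals at 95% use the residual spread of the fit. Alternatives were DESeq2 1.42.0 (test and size factors), limma-voom 3.58.1, the likelihood ratio test, library size alone, other filters, each tumor left out, vehicle replicates 1 and 2 summed, a replicate block, and R-propranolol replicates 2 and 5 both left out. Exon lengths came from GENCODE M21 (GRCm38) and promoters from RefSeq.

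The 10 ligands and all lists were chosen with earlier results of these data known. All 10 ligands are named. From the other ligands, receptors, atypical receptors and processing genes, the 3 most abundant and the 3 with the smallest p were named, with a few neighbors of the ligands (Cxcl2, Cxcl3, Ppbp) chosen after their values were seen. From each marker list the most abundant gene and the summed CPM are given. For each ligand the 3 genes most alike were named. A few genes that these rules name are not reported here.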

Additional observations from a re-analysis of the deposited data

Results flagged for a closer look

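By Dixon's ratio on log2 CPM, a tumor lay far from the others of its group in 3 of 22 sets of values. The sets were those of the 10 ligands and their sum in each treatment. Chance gives about 1 in 20 for independent sets, but these share tumors and the sum holds the ligands. The share of such flags over all genes was not computed, so the count shows no excess among ligands. R-propranolol replicate 5 was lowest for 42.1% and highest for 36.5% of all genes tested. Ccl7 was 133 CPM in vehicle replicate 3, above the 101 to 104 CPM of the other vehicle tumors (ratio 0.897). Cxcl1 was 12.8 CPM in R-propranolol replicate 5, below the 65.7 to 88.8 CPM of the other R-propranolol tumors (0.845). Cx3cl1 was 17.2 CPM in R-propranolol replicate 5, below the 75.6 to 138 CPM of the other R-propranolol tumors (0.7103, against a critical value of 0.71). On CPM, a scale added after seeing the data, 2 sets passed, Ccl7 in vehicle replicate 3 (0.909) and Cxcl5 in R-propranolol replicate 2 (0.925), at 80.9 CPM against 2.21 to 8.11 CPM in the other R-propranolol tumors, while Cxcl1 (0.697) and Cx3cl1 (0.482) did not.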

How the results depend on the processing

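Of 190 ligand fold changes under 19 alternatives, 166 kept their direction and 24 turned. Ccl2, Ccl7, Cxcl1 and Cxcl10 kept theirs in every alternative. The direction turned with library size alone for Ccl8 (-0.071), Ccl5 (-0.11) and Cxcl12 (-0.037), with limma-voom for Ccl8 (-0.12), Ccl5 (-0.056) and Cxcl12 (-0.11), with the replicate block for Ccl8 (-0.34) and Ccl5 (-0.22), and without R-propranolol replicates 2 and 5 for Ccl8 (-0.95), Ccl5 (-0.12), Ccl9 (-0.47), Cxcl5 (-0.94) and Cx3cl1 (0.092). The cause was not tested. With 1 tumor left out, log2 fold changes ranged from -0.38 to 0.41 for Ccl8, from -0.19 to 0.27 for Ccl5, from -0.40 to 2.09 for Cxcl5, from -0.085 to 0.27 for Cxcl12, from 0.62 to 1.90 for Ccl9, from -1.14 to -0.06 for Cxcl10, from -0.52 to -0.05 for Cx3cl1, from -0.56 to -0.13 for Cxcl1, from -0.42 to -0.14 for Ccl2 and from -0.29 to -0.017 for Ccl7.

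The count of ligands at an unadjusted p under 0.05 was 0, but 1 with the DESeq2 test. With 1 tumor left out it was 0 to 1, where Ccl9 passed without R-propranolol replicate 3. It was 2 (Ccl8 and Cxcl5) without R-propranolol replicates 2 and 5, which held the highest R-propranolol values of both genes. Over the whole table, the count of genes that passed an adjusted p of 0.05 was 0, and 2 (Egr1 and Dusp1) with the DESeq2 test. At an unadjusted p under 0.05 there were 320 genes, but 656 with the DESeq2 test, 139 with limma-voom, 751 with the likelihood ratio test, 626 with no filter, 100 with vehicle replicates 1 and 2 summed, 639 without R-propranolol replicates 2 and 5, and 103 to 737 with 1 tumor left out.

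Samples with the same replicate number had r of -0.28, 0.09, -0.64 and 0.53 between their deviations from the group means (numbers 1 to 4). These values differ in sign and cannot settle whether the numbers pair the tumors. With the replicate block, 283 genes had an unadjusted p under 0.05 and 0 ligands passed an adjusted p of 0.05, while 4 receptors were above 0 and 9 below, and 7 processing genes above 0 and 4 below.

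The lowest counts in a tumor among the ligands were 35 for Cxcl10, 39 for Ccl5 and 49 for Cxcl5.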

Other observations

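The other marker lists varied between tumors as follows. Mural cell markers, led by Des, which muscle also makes, summed to 8981 CPM in R-propranolol replicate 5 and 142 to 479 CPM in the other R-propranolol tumors, against 130 to 225 CPM in vehicle tumors. Platelet and megakaryocyte markers, led by Pf4, summed to 329 CPM in R-propranolol replicate 2 and 55.2 to 134 CPM in the other R-propranolol tumors, against 63.9 to 160 CPM in vehicle tumors. Dendritic cell markers, led by Itgax, summed to 26.5 to 43.7 CPM in R-propranolol tumors and 29.8 to 52.5 CPM in vehicle tumors. Keratinocyte markers, led by Sbsn, summed to 2.17 to 42.9 CPM in R-propranolol tumors and 2.66 to 19.8 CPM in vehicle tumors. Hepatocyte markers, led by Alb, summed to 20.9 to 94.4 CPM in R-propranolol tumors and 0.95 to 35.8 CPM in vehicle tumors. Skeletal muscle markers were led by Acta1 and adipocyte markers by Cfd, both highest in R-propranolol replicate 5.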
